A study of Mus musculus with 7 samples.

Results

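The Arp2/3 complex starts new actin filaments as branches on the side of existing ones. Its actin-related subunits, Arp2 and Arp3, stand in for the first actins of the new filament, and 5 further subunits, ArpC1 to ArpC5, hold them in place and bind the mother filament and the activators. Mammals carry paired genes for ArpC1 (*Arpc1a* and *Arpc1b*), for ArpC5 (*Arpc5* and *Arpc5l*) and for Arp3 (*Actr3* and *Actr3b*). In blood cells the complex drives crawling, phagocytosis and the contact between immune cells, and ArpC1B is known as the form on which human leukocytes and platelets depend.

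The 9 genes described here, *Arpc1a*, *Arpc1b*, *Arpc2*, *Arpc3*, *Arpc4*, *Arpc5*, *Arpc5l*, *Actr2* and *Actr3*, were taken by symbol from the 25033 symbols in the files. *Arpc4* was chosen by its measured genotype difference, since it is in the study's own list of changed genes, and its difference is therefore given here as a description with no test. The other 8 were listed as subunits of the same complex and not by their values. The question asked of them is whether they share the higher level of *Arpc4*.

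The RNA came from lineage depleted (lin-) bone marrow cells of 3 *HRP-2* wild type (Hrp2+/+) and 4 *HRP-2* knockout (Hrp2-/-) mice aged 6 to 8 weeks. Progenitors were enriched with a commercial kit from hind limb marrow after red cell lysis. The knockout mice carried the systemic tm1b allele (C57BL/6N-Hdgfrp2<tm1b (KOMP)Wtsi>/Tcp), so that every tissue was affected and only animals that lived to this age could be sampled. Each mouse gave 1 library of 3′ end reads and is a separate biological replicate. The libraries held from 3525665 to 5605158 reads on genes, and 3 reads, the floor used here, stood for 0.561 to 0.840 CPM (reads on a gene relative to the library size, scaled with edgeR's TMM factors). The knocked-out gene, *Hdgfl2*, stood at 46.1 ± 3.42 CPM among wild type mice (SD, n = 3), with 1.29 ± 0.938 CPM among knockouts (SD, n = 4). The ribosomal RNA precursor *Rn45s* took from 4.94% (knockout replicate 1) to 20.6% (wild type replicate 2) of the reads on genes. Knockout replicate 3 stood apart by 104.5 CPM of the Y-linked gene *Ddx3y* and 0.561 CPM of *Xist*, where the other 6 mice had at most 0.777 CPM of *Ddx3y* and at least 229.0 CPM of *Xist*, and the labels give no sex. In bulk RNA, fewer cells of a type and less RNA per cell cannot be told apart.

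All 9 subunits were detected in every mouse and passed the filter on low counts, together with 11265 genes in all. Because the libraries hold 1 fragment per transcript near its 3′ end, the levels were not divided by gene length. In wild type mice the mean level ran from 127.1 CPM for *Arpc1a* to 975 CPM for *Arpc2*, a ratio of 7.67. *Arpc2* and *Arpc1b* headed the order in both genotypes, followed by *Arpc3* and *Arpc5*. The order of these first genes did not hold beyond the spread between mice, since *Arpc2* lay above *Arpc1b* in 1 of 3 wild type mice and below it in 3 of 4 knockout mice. *Arpc3* was above *Arpc5*, and *Arpc5* above all subunits of lower level, in all 7 mice. *Actr2* and *Actr3* did not differ beyond their spread in wild type mice, with a gap of 23.5 CPM between means and an SD of 35.05 CPM for *Actr2*. *Arpc5l* and *Arpc1a* differed by 1.03 CPM in wild type mice, against an SD of 20.4 CPM for *Arpc5l*. *Arpc4* was the seventh in the wild type order and the fifth in the knockout order.

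**Figure D1:**
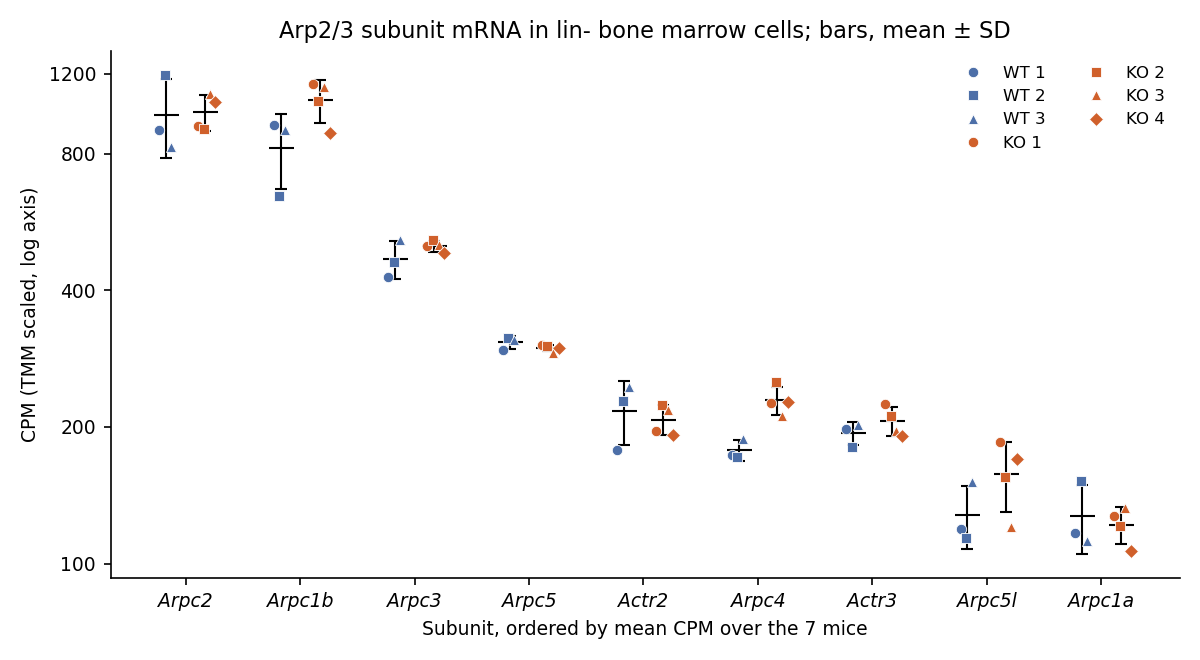
CPM of the 9 Arp2/3 subunits on a log axis, with 1 point per mouse (blue, 3 wild type; orange, 4 knockout; the marker shape gives the replicate number) and bars for the mean ± SD. The 4 knockout points of *Arpc4* lie above its 3 wild type points, and in every other subunit the genotypes overlap.

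The mice of a genotype differed little in these genes. The SD of log2(CPM + 1) within a genotype had a median of 0.18 over the 9 subunits, against 0.28 over all 11265 genes tested and 0.18 over the 1488 genes with a mean level of at least that of the lowest subunit. *Arpc5* was the steadiest, with an SD of 0.035, and *Arpc5l* the most variable, with 0.25. Wild type replicate 2, the library with the most *Rn45s*, gave the highest value of 3 subunits and the lowest of 4. Knockout replicate 1, the library with the least *Rn45s*, gave the highest value of 3 and the lowest of none.

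*Arpc4* encodes the p20 subunit, which forms the structural core of the complex together with ArpC2. The gene (ENSMUSG00000079426.13) lies on chromosome 6 of GRCm38 from 113378115 to 113390448 on the forward strand. Wild type replicates 1 to 3 gave 790, 612 and 708 reads, and knockout replicates 1 to 4 gave 1164, 1208, 1130 and 910. In CPM these were 173.3, 171.4 and 188.1 in wild type and 226.2, 251.0, 211.1 and 226.7 in knockout mice. Every knockout mouse lay above every wild type mouse, and knockout replicate 2 was the highest. The means were 177.6 ± 9.16 CPM (SD, n = 3) and 228.8 ± 16.5 CPM (SD, n = 4). On the log2 scale the fitted difference was 0.37 (standard error 0.13, 95% interval 0.097 to 0.63), or 1.29-fold. Since this gene was picked for this difference on these mice, no p is given. A larger log2 fold change than that of *Arpc4* was found for 7.96% of the genes tested. Leaving out each mouse in turn gave values from 0.32 to 0.41, and without knockout replicate 3 the value was 0.40.

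Its upstream window is shown because *Arpc4* is the subunit with the clearest difference. The window runs from 250 bases before to 50 bases after the RefSeq start on GRCm38.p6 (chr6:113377863-113378162, forward strand), and capitals mark any of the motifs searched on both strands: the GC box GGGCGG, the ETS motif CCGGAAG, the PU.1 motif GAGGAAGT, the CCAAT box and the CArG box bound by SRF, a regulator of many actin genes.

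Arpc4: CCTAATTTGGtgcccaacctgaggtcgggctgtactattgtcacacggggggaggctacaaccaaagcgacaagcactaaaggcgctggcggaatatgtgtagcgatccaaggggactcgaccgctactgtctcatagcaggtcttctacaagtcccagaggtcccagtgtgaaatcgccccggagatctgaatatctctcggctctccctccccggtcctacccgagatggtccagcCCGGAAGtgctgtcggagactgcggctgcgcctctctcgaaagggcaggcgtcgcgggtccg

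The window held 1 CArG box at its far end, 250 bases before the start, and 1 ETS motif beginning 12 bases before the start. Among 32851 windows of the same length, 1.63% held a CArG box and 8.86% the ETS motif. Of the 8 subunits with an entry in the table, *Arpc4* was the one with a CArG box, while the ETS motif was also in the windows of *Arpc1a*, *Arpc3*, *Actr2* and *Actr3*. *Arpc5l* had no entry. These matches describe letters and not bound sites.

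The annotation at the other end of *Arpc4* bears on its counts. The last exon of the longest transcript spans 1678 bases, from 113388771 to 113390448, and the first exon of 1 of the 9 annotated transcripts of *Ttll3*, a tubulin glycine ligase gene on the same strand, covers 283 of them (16.9%) in GENCODE M21. Reads on those bases match both genes. Whether they were tallied as ambiguous is not known, since the counting mode is not stated. The files give the ambiguous reads only as a total per library, 1.99% to 2.403% of all reads tallied, so how many fell here is unknown. *Ttll3* itself had 6 to 36 reads per mouse, 5.13 ± 1.96 CPM among wild type mice (SD, n = 3), with 4.84 ± 2.51 CPM among knockouts (SD, n = 4) (log2 fold change −0.089, adjusted p = 0.999 by edgeR's quasi-likelihood test). *Tada3*, the upstream neighbour, differed by 0.33 on the log2 scale, with a standard error of 0.26 and an adjusted p of 0.999 by the same edgeR test.

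**Figure D2:**
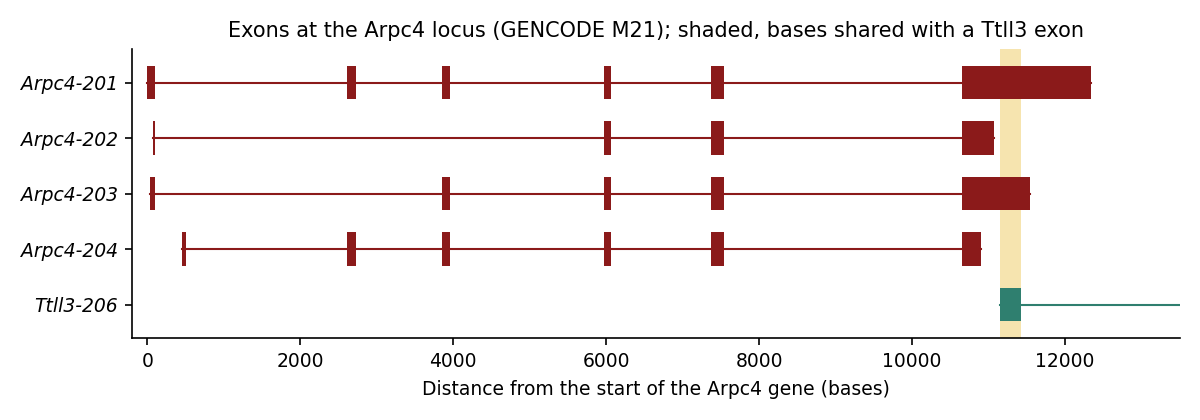
Exons (boxes) of the 4 *Arpc4* transcripts and of the overlapping *Ttll3* transcript by distance in bases from the start of *Arpc4*, with introns as lines. The shaded 283 bases, inside the last exon of 2 of the 4 *Arpc4* transcripts, are shared with the first exon of that *Ttll3* transcript.

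Of the 8 other subunits, 5 had higher and 3 lower estimates in knockout cells, and none was called. Over all 11265 genes, all 4 knockout mice lay above all 3 wild type mice for 2.37% of genes and below them for 2.79%. Among the 9 subunits the counts were 1, *Arpc4* itself, and 0, and for the other 8 a count of 0 is at the share of all genes and is no result about them. At an adjusted p under 0.25, the threshold of the study, edgeR's quasi-likelihood test called 2 genes of the 11265, or 0.0178%. None of the 9 subunits, *Arpc4* included, was among them or was called by DESeq2. The 8 others were not called by limma-voom either. At an unadjusted p under 0.05 there was 1 of the 8, *Arpc1b*, higher in knockout cells, where 1.56% of all genes passed in that direction. The median log2 fold change of the 8 was 0.053, against −0.0014 over all genes tested, of which 49.8% were above 0. The 95% intervals of 6 of the 8 ended below the *Arpc4* estimate of 0.37, and those of *Arpc1b* and *Arpc5l* held it. This count was not stable, since *Arpc3* and *Actr3* ended just below it, at 0.354 and 0.356 against 0.365. Both held the *Arpc4* estimate of the same fit in edgeR's likelihood ratio test and without a filter on low counts. When scaled by library size alone they ended at 0.408 and 0.427, against 0.366. In the quasi-likelihood fit all 8 intervals also held values inside the interval of *Arpc4*. The difference between *Arpc4* and another subunit was not tested because *Arpc4* was picked on it.

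**Figure D3:**
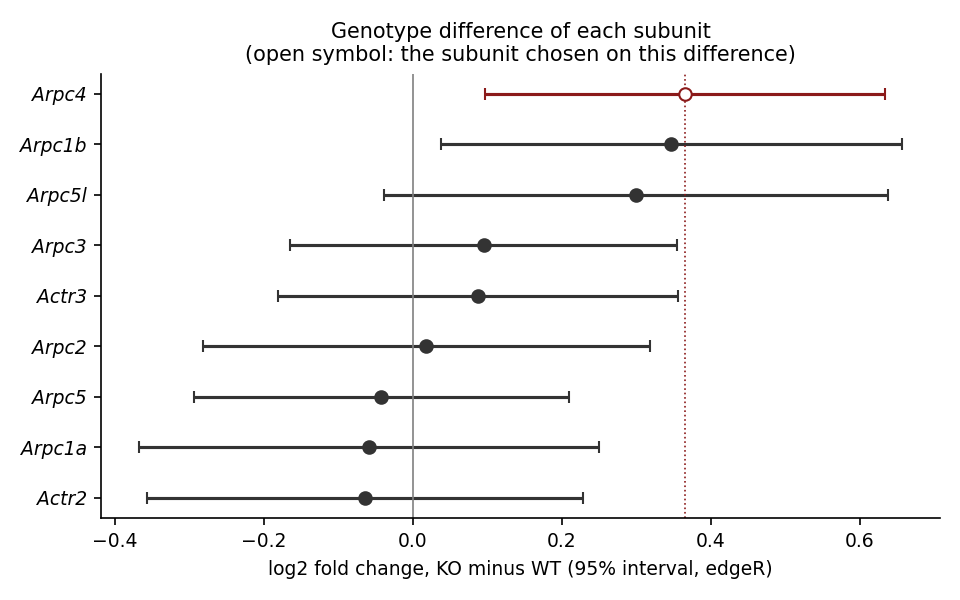
log2 fold change (knockout minus wild type) of each subunit with its 95% interval from edgeR's fit to 3 wild type and 4 knockout mice. The open symbol and dotted line are *Arpc4* at 0.37, *Arpc1b* (0.35) and *Arpc5l* (0.30) come next, and the other 6 lie between −0.064 and 0.095.

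The actin-related subunits were close to level between the genotypes. *Actr2*, which encodes Arp2, stood at 177.9, 228.5 and 245.2 CPM in wild type replicates 1 to 3 and at 196.1, 224.0, 218.2 and 192.1 CPM in knockout replicates 1 to 4. The knockout values all lay within the wild type range. Its log2 fold change was −0.064 (standard error 0.14, 95% interval −0.36 to 0.23, adjusted p = 0.999 by edgeR's quasi-likelihood test). *Actr3*, which encodes Arp3, stood at 198.1, 180.9 and 202.2 CPM in wild type and at 224.5, 211.3, 196.4 and 191.1 CPM in knockout mice. Its 2 highest values were those of knockout replicates 1 and 2, and the genotypes overlapped. On the log2 scale *Actr3* differed by 0.087 (standard error 0.13, 95% interval −0.18 to 0.36). *Actr3b*, the other Arp3 gene, was near the floor, with 1 to 19 reads per mouse, and its interval of −1.32 to 2.25 on the log2 scale left its difference undetermined at this depth.

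*Arpc2*, the partner of *Arpc4* in the core, had the highest mean in wild type mice and the second highest, after *Arpc1b*, in knockout mice. Its levels were 904, 1194 and 827 CPM in wild type and 919, 905, 1084 and 1041 CPM in knockout mice. Wild type replicate 2 was the highest of the 7 and wild type replicate 3 the lowest, so the knockout range lay inside the wild type range. The fitted log2 difference was 0.018 (standard error 0.14, 95% interval −0.28 to 0.32). *Arpc3*, which encodes the p21 subunit beside Arp3, stood at 428, 461 and 517 CPM in wild type and at 500.2, 517, 503 and 482 CPM in knockout mice. The highest value belonged to wild type replicate 3. For *Arpc3* the log2 fold change was 0.095 (standard error 0.12, 95% interval −0.16 to 0.35).

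Of the ArpC1 pair, which encode the WD repeat subunit that contacts the activators, *Arpc1b* was by far the more abundant. Its levels were 925, 647 and 902 CPM in wild type and 1139, 1044, 1123 and 887 CPM in knockout mice. Knockout replicates 1 to 3 lay above all wild type mice, and knockout replicate 4 lay below wild type replicates 1 and 3. The means were 824 ± 154.5 CPM (SD, n = 3) and 1048 ± 115.2 CPM (SD, n = 4). The fitted log2 difference was 0.35 (standard error 0.15, 95% interval 0.037 to 0.66, unadjusted p = 0.0301, adjusted p = 0.999 by edgeR's quasi-likelihood test). Leaving out 1 mouse gave values from 0.20 (without wild type replicate 2) to 0.45 (without wild type replicate 1), and after adding the *Rn45s* share as a covariate it was 0.28 (95% interval 0.038 to 0.53). Without the 2 libraries richest in *Rn45s* it was 0.27 (95% interval −0.026 to 0.57), and the interval also held 0 without wild type replicate 2, without knockout replicate 1, 2 or 3, or when scaled by library size alone. The lowest *Arpc1b* values, in wild type replicate 2 and knockout replicate 4, were those of the libraries with the most *Rn45s*, 20.6% and 18.6%, and the highest was that of the library with the least. In GENCODE M21, 931 of the 5115 exonic bases of *Arpc1b* are also exonic in *Pdap1* on the other strand, with 0 of them in the last exon of *Arpc1b*. Which strand was counted is not stated. *Arpc1a* stood at 116.7, 152.3 and 112.1 CPM in wild type and at 127.3, 120.7, 132.7 and 106.6 CPM in knockout mice, with wild type replicate 2 on top, and its log2 fold change was −0.059 (standard error 0.15, 95% interval −0.37 to 0.25).

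The pair lies in tandem on chromosome 5, *Arpc1a* from 145083830 to 145108761 and *Arpc1b* from 145114215 to 145130705, both on the forward strand. Their upstream windows (RefSeq, GRCm38.p6, chr5:145083619-145083918 and chr5:145114006-145114305, capitals as above) are set side by side because these neighbours differ so widely in level.

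Arpc1a: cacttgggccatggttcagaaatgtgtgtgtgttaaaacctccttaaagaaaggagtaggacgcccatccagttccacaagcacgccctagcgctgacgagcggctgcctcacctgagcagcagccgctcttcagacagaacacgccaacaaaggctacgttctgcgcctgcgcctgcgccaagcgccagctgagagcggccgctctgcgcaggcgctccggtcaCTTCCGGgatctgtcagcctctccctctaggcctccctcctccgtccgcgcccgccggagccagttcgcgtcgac

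Arpc1b: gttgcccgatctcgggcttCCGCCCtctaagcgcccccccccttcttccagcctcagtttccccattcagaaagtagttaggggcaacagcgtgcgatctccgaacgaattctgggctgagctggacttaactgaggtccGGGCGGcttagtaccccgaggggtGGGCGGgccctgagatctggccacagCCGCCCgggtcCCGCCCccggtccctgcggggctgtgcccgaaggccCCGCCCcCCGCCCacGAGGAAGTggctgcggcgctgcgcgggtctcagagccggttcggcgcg

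The *Arpc1a* window held 1 ETS motif, and the *Arpc1b* window held 7 GC boxes and 1 PU.1 motif that begins 2 bases after the start. Among all 32851 windows, 35.7% held a GC box and 3.20% the PU.1 motif, and of the 8 subunit windows 6 held a GC box and 1 the PU.1 motif. The CCAAT box was in 2 subunit windows, those of *Arpc5* and *Actr2*, and in 37.4% of all windows. The 8 subunit windows had a median of 68.3% G or C bases, against 52.7% over all windows. The motif shares given here and for *Arpc4* were not matched for this.

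The reads of *Arpc1b* were 7.92, 4.24 and 8.05 times those of *Arpc1a* in wild type replicates 1 to 3 and 8.95, 8.65, 8.46 and 8.32 times in knockout replicates 1 to 4. All 4 knockout ratios were above all 3 wild type ratios, but wild type replicates 1 and 3 lay close to the knockout mice and replicate 2 far below. The mean log2 ratio was 2.69 ± 0.53 among wild type animals (SD, n = 3), with 3.10 ± 0.046 among knockouts (SD, n = 4). The difference was 0.41 (two-sided exact permutation test, p = 0.0286, the smallest that the 35 divisions of 7 mice into 4 and 3 allow, and 0.0571 adjusted over the 2 ratios tested). It fell short of 0.05 after the adjustment and was 0.11 without wild type replicate 2.

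The ArpC5 pair encode the p16 subunit that tethers ArpC1 to the complex. *Arpc5* stood at 296, 314 and 311 CPM in wild type and at 302, 301, 291 and 299 CPM in knockout mice, with the narrowest range of all subunits. For *Arpc5* it was −0.042 on the log2 scale (standard error 0.12, 95% interval −0.29 to 0.21). *Arpc5l* stood at 119.1, 113.7 and 151.4 CPM in wild type and at 185.6, 155.0, 120.1 and 169.9 CPM in knockout mice. Knockout replicates 1, 2 and 4 were above all wild type mice, and knockout replicate 3 was among them. For *Arpc5l* the log2 fold change was 0.30 (standard error 0.16, 95% interval −0.039 to 0.64, unadjusted p = 0.0796, adjusted p = 0.999 by edgeR's quasi-likelihood test). Leaving out 1 mouse gave from 0.21 (without knockout replicate 1) to 0.44 (without wild type replicate 3), and without knockout replicate 3 the value was 0.41. The fits without wild type replicate 3 and without knockout replicate 3 had 95% intervals above 0, 0.055 to 0.82 and 0.093 to 0.73, and the *Arpc4* values of these fits were 0.41 and 0.40. In the other 5 such fits the interval held 0, and without the 2 libraries richest in *Rn45s* the value was 0.18 (95% interval −0.21 to 0.58). The reads of *Arpc5* were 2.49, 2.76 and 2.06 times those of *Arpc5l* in wild type and 1.63, 1.94, 2.42 and 1.76 times in knockout mice. The log2 ratio averaged 1.27 ± 0.22 (SD, n = 3) and 0.94 ± 0.25 (SD, n = 4), a difference of −0.33 that did not pass the test (two-sided exact permutation test, p = 0.114, also 0.114 adjusted over the 2 ratios).

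Set against the other subunits within each library, a comparison that needs no scaling, *Arpc4* separated the genotypes by its ratio but barely by its share. Its log2 ratio to the mean of the other 8 was −0.75, −0.84 and −0.75 in wild type replicates 1 to 3 and −0.57, −0.38, −0.62 and −0.46 in knockout replicates 1 to 4. The means differed by 0.27, and the genotypes did not overlap, which is a description for the reason given above. Of all subunit reads, *Arpc4* took 5.19% ± 0.25 among wild type animals (SD, n = 3), with 6.10% ± 0.55 among knockouts (SD, n = 4), and the lowest knockout and the highest wild type share were both 5.44%. The summed level of the other 8 subunits was 3165, 3292 and 3269 CPM in wild type and 3594, 3478, 3669 and 3369 CPM in knockout mice. All 4 knockout sums lay above all 3 wild type sums. *Arpc1b*, left out next after its values were seen, was the largest contributor to this gap. Without it, the sum of the remaining 7 was 2240, 2645 and 2367 CPM in wild type and 2455, 2434, 2546 and 2482 CPM in knockout mice. These knockout values lay within the wild type range only through wild type replicate 2, and wild type replicates 1 and 3 lay below all 4 of them. Leaving out the largest contributor narrows the gap by construction.

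**Figure D4:**
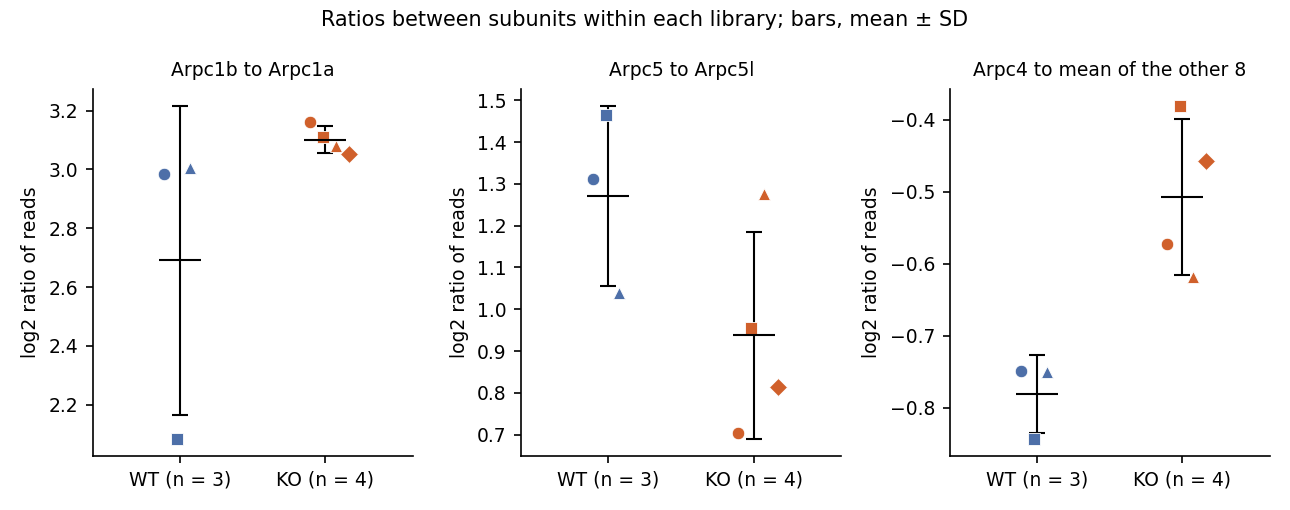
log2 ratio of reads within each library for *Arpc1b* to *Arpc1a*, *Arpc5* to *Arpc5l* and *Arpc4* to the mean log2 level of the other 8 subunits, with 1 point per mouse (marker shapes as for the plot of CPM by mouse) and bars for the mean ± SD. Wild type replicate 2 lies far below the other 6 mice in the first ratio, and the genotypes separate in the third, whose means are −0.78 and −0.51.

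None of its partners was among the 5 profiles nearest to *Arpc4*. Likeness was taken as the root mean square difference over the 7 mice of log2(CPM + 1) centred on the wild type mean, among 8514 other genes with a mean of at least 10 CPM. The nearest were *Lrrfip1* (0.070), *Fam110a* (0.083), *Rnf115* (0.094), *Thoc6* (0.099) and *Pcgf6* (0.10). The subunits ranked 277 (*Arpc5l*, 0.19), 365 (*Arpc1b*, 0.20), 558 (*Arpc3*, 0.21), 725 (*Actr3*, 0.22), 2762 (*Arpc5*, 0.31), 3553 (*Arpc2*, 0.34), 3697 (*Actr2*, 0.34) and 4463 (*Arpc1a*, 0.37). This measure includes the genotype difference for which *Arpc4* was picked, so the order is a description and not evidence on whether that difference is shared.

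The 9 subunits were then placed beside 77 genes that feed or oppose the complex, of which 70 passed the filter. No gene of these was called at an adjusted p under 0.25 by edgeR's quasi-likelihood test or DESeq2, and 4 had an unadjusted p under 0.05, where 3.63% of all genes did. The log2 fold change was above 0 for 45 and below 0 for 25, with a median of 0.044. Without wild type replicate 2 the median was 0.0086, with 37 above 0, without knockout replicate 1 it was 0.018, and without the 2 libraries richest in *Rn45s* it was 0.025, with 36 above 0. All knockout mice lay above all wild type mice for 5 of the 70 and below them for 2, beside 2.37% and 2.79% of all genes. *Itsn1*, a scaffold and Cdc42 exchange factor, was 1 of the 5, at 26.8 ± 2.05 CPM (SD, n = 3) and 39.6 ± 2.35 CPM (SD, n = 4), but it is also in the study's list of changed genes, so its difference is a description.

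The activators gave no call. Of 4 tested WASP and WIP genes, 2 were higher and 2 lower, and the log2 fold change of *Was*, which encodes the hematopoietic activator WASP, was 0.077. *Wasl*, which encodes the widely expressed N-WASP, was at −0.48 on that scale (standard error 0.26), and *Wipf2* and *Wipf1*, the most abundant of the list, had −0.14 and 0.094. In the WAVE complex, which drives lamellipodia, 5 of 9 were higher. *Abi2* stood at 32.6 ± 1.99 CPM among wild type mice (SD, n = 3), with 22.9 ± 4.41 CPM among knockouts (SD, n = 4) (log2 fold change −0.52, standard error 0.21, adjusted p = 0.999 by edgeR's quasi-likelihood test), below the wild type mice in all 4 knockout mice. The hematopoietic WAVE subunit *Nckap1l* was at 145.9 and 147.6 CPM on average, *Cyfip2* at 237.4 and 209.1 CPM, and *Brk1* at 219.1 and 224.9 CPM. Of 7 genes of the WASH complex, which works on endosomes, and its relatives, 4 were higher, and the log2 fold changes lay between −0.24 (*Washc3*) and 0.19 (*Whamm*). The most abundant of them were *Washc2*, at 57.5 and 53.97 CPM on average, and *Washc4*, at 43.2 and 43.5 CPM.

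Genes that hold or remove branches were mixed. The hematopoietic cortactin relative *Hcls1* averaged 177.3 CPM in wild type and 186.7 CPM in knockout cells, while *Cttn* itself averaged 8.73 and 4.96 CPM (log2 fold change −0.83, standard error 0.43). Of 9 inhibitors and debranching factors, 3 were higher and 6 lower. *Coro1c*, a coronin, stood at 241.5, 181.7 and 242.3 CPM in wild type and at 346, 281, 264 and 244 CPM in knockout mice (log2 fold change 0.36, standard error 0.15, adjusted p = 0.999 by edgeR's quasi-likelihood test). *Coro1a*, the coronin of leukocytes, averaged 225.5 and 234.2 CPM, and *Coro2a* averaged 46.9 and 37.8 CPM. The inhibitor *Arpin* had at most 2 reads in a mouse and was not tested.

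Of 18 genes of actin and its binding proteins 13 were higher, with a median of 0.12. *Actb* averaged 10802 CPM in wild type and 11518 CPM in knockout cells, and *Tmsb4x*, which encodes the monomer-binding thymosin beta 4, averaged 3873 and 4500.1 CPM (log2 fold change 0.22, standard error 0.15). *Flna*, which encodes the crosslinker filamin A, was at 0.28 on the log2 scale (standard error 0.19). *Twf2*, which encodes the monomer-binding twinfilin 2, averaged 91.0 ± 2.94 CPM (SD, n = 3) and 112.2 ± 9.29 CPM (SD, n = 4), with no overlap (log2 fold change 0.30, standard error 0.14, adjusted p = 0.999 by edgeR's quasi-likelihood test). Of 9 formins and other nucleators 6 were higher, with *Fmnl1* at a log2 fold change of 0.29 (standard error 0.14), *Inf2* at 0.22 (standard error 0.17) and *Diaph1*, the most abundant, at 0.050.

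**Figure D5:**
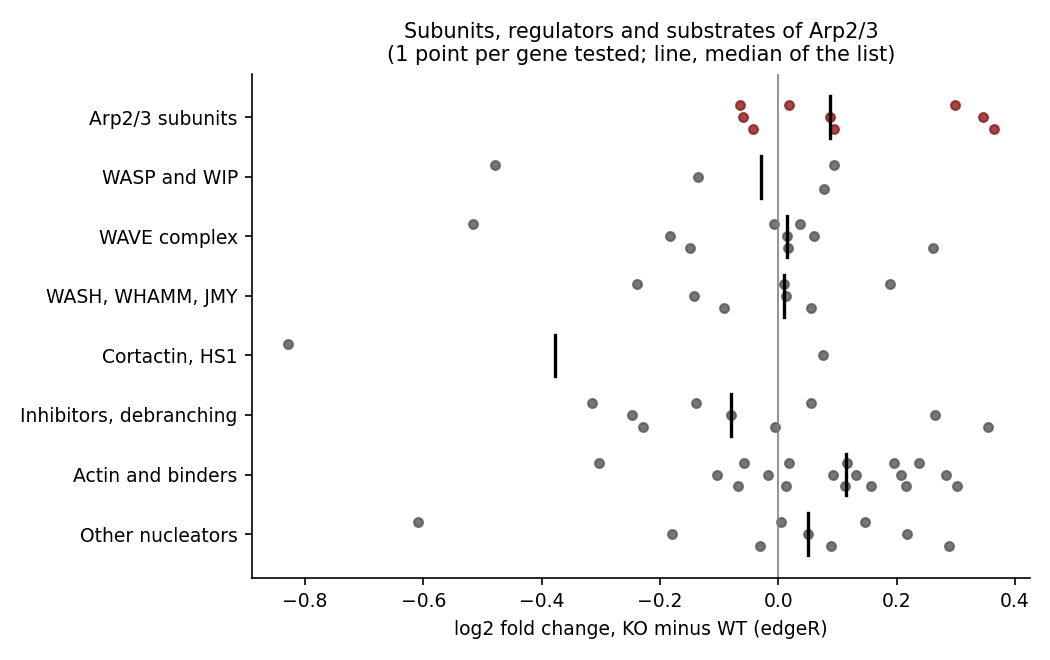
log2 fold change (knockout minus wild type, edgeR) of the 9 subunits (red) and of tested regulators and substrates (grey) in 7 lists, with 1 point per gene and a line at the median of each list. The list medians lie between −0.38 (2 genes) and 0.12, and the subunits run from −0.064 to 0.37.

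Marker RNA of several blood lineages varied between the mice, although lineage depletion is meant to remove mature cells, granulocytes included. The 10 late neutrophil genes of a marker list all had log2 fold changes above 0 in knockout cells, with a median of 0.72, though none was called at an adjusted p under 0.25 by edgeR's quasi-likelihood test or DESeq2 or had an unadjusted p under 0.05. Their summed level was 7989, 8820 and 11139 CPM in wild type and 15919, 9071, 25203 and 11781 CPM in knockout mice. Knockout replicate 2, with the lowest neutrophil sum of its genotype and less than wild type replicate 3, had the highest *Arpc4* level, and knockout replicate 3, with the highest sum, had the lowest *Arpc4* and *Arpc5l* levels of its genotype. Knockout replicates 1 and 3, with the highest sums, had the highest *Arpc1b* levels, and the part of neutrophil RNA in the *Arpc4*, *Arpc5l* and *Arpc1b* differences was not tested. The monocyte and macrophage markers summed to between 1986 and 2117 CPM in wild type and between 1982 and 2793 CPM in knockout mice, with 3 of 10 higher. No gene of the other marker lists was called by edgeR's quasi-likelihood test either, but 5 of the 10 monocyte and macrophage markers had an unadjusted p under 0.05, beside 3.63% of all genes. These were *Ly6c2*, a monocyte gene with a log2 fold change of 0.34, and *C1qa*, *C1qc*, *Vcam1* and *Mrc1*, with negative ones. The last 4 and *C1qb* were lower in all 4 knockout mice than in any wild type mouse, beside 2.79% of all genes. The other 4 markers had log2 fold changes of 0.20 (*F13a1*), 0.10 (*Csf1r*), −0.018 (*Ccr2*) and −0.0098 (*Adgre1*). *C1qc* averaged 34.4 CPM in wild type and 17.2 CPM in knockout mice and was called by DESeq2 (adjusted p = 0.0113). The stem and progenitor markers, *Kit* and *Cd34* among them, summed to between 971 and 1101 CPM and between 899.7 and 1033 CPM, with 2 of 9 higher. *Spi1*, which encodes PU.1, was higher in every knockout mouse than in any wild type mouse, beside 2.37% of all genes. It averaged 149.0 and 167.3 CPM (log2 fold change 0.17, unadjusted p = 0.199 by edgeR's quasi-likelihood test). Primary granule markers summed to 8121 to 10412 CPM and 7160 to 10030.4 CPM, with 2 of 5 higher. Eosinophil, basophil and mast cell markers summed to 2498 to 2609 CPM and 1731 to 2328 CPM, with 0 of 6 higher. *Prg2*, *Epx* and *Prg3*, eosinophil granule genes, had an unadjusted p under 0.05, beside 3.63% of all genes, and were lower in all 4 knockout mice than in any wild type mouse, beside 2.79%. Erythroid markers summed to 251.9 to 460.6 CPM and 282.3 to 391.9 CPM, with 2 of 6 higher, and *Hba-a1* and *Hbb-bt* are listed at 0 in every library. Lymphoid markers summed to 363.1 to 493.4 CPM and 251.7 to 460.4 CPM, with 3 of 10 higher. *Dntt*, a lymphoid progenitor gene, averaged 176.7 and 106.0 CPM, did not overlap between the genotypes and was called by DESeq2 (adjusted p = 0.131). Megakaryocyte markers summed to 226.6 to 368.8 CPM and 103.6 to 890.2 CPM, with 4 of 6 higher.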

How the data were processed

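RNA was measured in lin- marrow cells of 7 mice, 3 wild type and 4 *HRP-2* knockout, grouped by their titles. Per the paper's methods, the authors made 3′ end libraries from 500 ng of RNA and ran STAR on the GRCm38 genome with an Ensembl annotation to align and quantify. Each deposited file lists raw, unnormalized read counts by symbol, and 5 tally rows per file (no feature, 27.0% to 31.6% of the reads, ambiguous and others) were left out. The tally rows have the layout of htseq-count, and the counting mode and strand setting are not stated. Depth was 3525665 to 5605158 reads on genes per mouse, and the floor of 3 reads covers counting error only.

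TMM factors, filterByExpr and the robust quasi-likelihood test came from edgeR 4.0.16 in R 4.3.3, with Benjamini-Hochberg adjustment over all 11265 genes. Standard errors are the log2 fold change divided by the square root of F, with 95% intervals from the t distribution of the fit. DESeq2 1.42.0, limma-voom (limma 3.58.1), the likelihood ratio test, other scalings and filters, a replicate block and the omission of each mouse were alternatives. Paralog ratios used log2 of reads plus 1 and the absolute difference of means in an exact permutation test. The fit was tested on simulated data with log2 changes of 1 and 2. At an adjusted p under 0.25 it recovered 79 of 100 and 95 of 99 changed genes, and 43 of its 217 calls were false. These changes are larger than those of the subunits, so the simulation cannot tell how often differences as small as theirs would be called. No 2 libraries within a genotype were alike within sampling noise. Coordinates and exons are from GENCODE M21 (GRCm38), which holds 97.6% of the symbols, and upstream windows from RefSeq.

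Named genes were the 9 subunits, *Hdgfl2* and the 5 profiles nearest to *Arpc4*. Per list, the 2 genes with the smallest p and the 2 with the highest level were added. From 1 pathway list, where this rule was not followed, only *Itsn1* is named. The tally of 1 pathway list is not reported here, and its 11 genes stay in the counts over all 70 pathway genes. *Ttll3*, *Tada3*, *Pdap1*, *Rn45s*, *Was*, *Nckap1l*, *Arpin*, *Ddx3y*, *Xist* and the marker genes with values were named after their values or annotation were seen. The subunits and gene lists, written by hand, were chosen with earlier results of these data known. The covariate of *Rn45s* and the omission of the 2 libraries richest in it were added after the data had been seen.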

Additional observations from a re-analysis of the deposited data

Results flagged for a closer look

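Among 79 genes, the 9 subunits and 70 regulators, 4 had a knockout mouse far from the other 3 of its genotype by the ratio of the gap to the range, where chance gives about 1 in 20, or 3.95. None was a subunit. *Gmfb*, a debranching factor, stood at 110.1 CPM in knockout replicate 4, against 89.6 to 91.6 CPM in the others. *Coro1a* stood at 212.8 CPM in the same mouse, against 239.4 to 242.5 CPM. *Cfl2*, a cofilin that severs filaments, stood at 8.55 CPM in knockout replicate 1, against 12.5 to 13.2 CPM. *Diaph3*, a formin, stood at 26.6 CPM in knockout replicate 2, against 35.4 to 36.2 CPM. The wild type group of 3 mice was not examined in this way.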

How the results depend on the processing

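The log2 fold change of *Arpc4* lay between 0.34 and 0.37 in 12 other fits to the same or fewer mice and between 0.32 and 0.41 when 1 mouse was left out. None of the 8 other subunits and none of the regulators was called in any of these 19 fits. The number of genes called among all genes was 2, and it was 21 with DESeq2, 29 with edgeR's likelihood ratio test, 41 without a filter on low counts, 1 with at least 10 counts in every mouse, 8 after adding the *Rn45s* share as a covariate, a setting chosen after seeing the data, and from 2 to 7 when 1 mouse was left out, with 7 without wild type replicate 1 and 4 without knockout replicate 1. Why these counts differ, the cause, was not tested. When the replicate numbers served as a block, 1 gene was called, and *Arpc1a* moved to 0.011. Same-numbered mice are different animals, and the correlations of their deviations from the genotype mean were −0.023, −0.17 and −0.13, with no mouse closest to its own number. Small differences turned sign when 1 mouse was left out, with *Arpc2* ranging from −0.087 to 0.19, *Arpc1a* from −0.14 to 0.092 and *Actr2* from −0.18 to 0.032. Without the 2 libraries richest in *Rn45s*, also chosen after seeing the data, *Arpc1a* was at 0.15 and *Actr2* at 0.0089. No scaling moved the median of all genes by over 0.1 or turned the direction of a subunit. With *Rn45s* removed before scaling, wild type levels were 538 CPM for *Arpc3*, 204 for *Arpc4*, 352 for *Arpc5* and 222 for *Actr3*. With 1 mouse left out, the ratio difference ranged from 0.11 to 0.57 for *Arpc1b* to *Arpc1a* and from −0.45 to −0.24 for *Arpc5* to *Arpc5l*. Depth limits the rare genes of the lists, such as *Actr3b*, *Arpin*, *Nckap1*, *Spire1* and *Coro2b*.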
